A study of Mus musculus with 18 samples.

Results

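Embryoid bodies (EBs) of *Tsix*-stop cells with and without *Kdm6a* were compared by RNA-seq at D15, across all genes, to find which lineages and pathways were lower or higher after the knockout (KO). The comparison rests on 4 of the 18 libraries of the series, chosen by the cell line, genotype and day in their labels: 2 of *Kdm6a* KO and 2 of wild type (wt). A single D15 library of a CRISPR control is set beside them without a test. *Tsix*-stop cells are hybrid female mouse embryonic stem (ES) cells from a cross of strain-129 and *Mus castaneus* (*cast*) mice. They carry a transcriptional stop in *Tsix* on the strain-129 X chromosome, so that this X is the one silenced on differentiation, and all 5 libraries share it. The KO cells are clones with a deletion in both copies of *Kdm6a* that runs from within exon 2 into exon 4, and the labels do not say which of 2 clones gave which KO library. The library called CRISPR control here is labelled only as a negative control. By the study's methods such a control is a clone that went through the CRISPR/Cas9 treatment and kept *Kdm6a* intact. The name under which the file of this library was deposited calls it KO, so its label is in doubt. Differentiation was undirected: LIF was removed, EBs were grown in suspension and then plated on gelatin until D15. The labels call all of these libraries embryonic stem cells, and *Pou5f1* still had 652 and 826 CPM in wt against 1259.8 and 1078 CPM in KO at D15. They do not state whether the libraries of a group came from separate cultures, and p-values here measure only the spread between these libraries.

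KDM6A is a demethylase that removes methyl groups from lysine 27 of histone H3, a mark that Polycomb complexes place on silent developmental genes. Genes of the mesoderm and endoderm carry this mark in ES cells and lose it as they are switched on. EBs imitate the early embryo: an outer layer of visceral and parietal endoderm forms around a core that goes through a primitive-streak-like state and then yields heart muscle, blood, vessels and stroma. Stromal cells deposit the fibrillar collagens, and visceral endoderm secretes plasma proteins much as the liver does later.

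The 4 libraries held 51091148 to 61856873 counts and the CRISPR control held 54551222. *Kdm6a* itself, on chromosome X from 18162575 to 18279936, had 140.1 and 111 CPM in wt against 94.8 and 27.96 CPM in KO, and 96.5 CPM in the CRISPR control, with a log2 fold change of −1.03 (SE 0.57, edgeR FDR 0.19). At D0 it had 139 and 208 CPM in wt against 129.5 and 48.2 CPM in KO. It was not called at D15, when KO replicate 1 was at the level of the CRISPR control; counts over a whole gene cannot show the loss of a few exons. The paper verified the deletion by PCR and sequencing. It reports residual *Kdm6a* RNA in the homozygous clones but no sign of the protein on western blots. *Xist*, the RNA that coats the inactive X, had 779.7 and 406 CPM in wt against 94.4 and 232 CPM in KO and 352 CPM in the CRISPR control. It was lower in KO by a log2 fold change of −1.86 (SE 0.44, edgeR FDR 0.013), and its reads cannot be told apart from those of the antisense *Tsix* (0.32), since the strand of counting is not given in the sources used here. The KO libraries differed from each other more than the wt libraries did among genes called lower: in 270 of 1456 such genes KO replicate 1 was at least 2-fold below KO replicate 2, in 17 it was as far above, and in 0 were the wt libraries that far apart. The genomes of the cells also differed. In 6 windows of 10 Mb on chromosome 6, from 40 to 100 Mb, the median strain-129 share of reads with SNPs was at least 99.4% in KO, between 59.3% and 75.3% in wt and between 48.6% and 58.5% in the CRISPR control. The KO libraries had a strain-129 share of at least 99.7% there at D0 too. Along all of chromosome 12 the share was 49.9% to 56.3% in KO, 34.7% to 41.6% in wt and 31.4% to 37.7% in the CRISPR control.

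Of 13121 genes tested, 1958 (14.9%) were called between KO and wt at D15. Calls, made with the quasi-likelihood test of edgeR, needed a change of 2-fold or more and an FDR not above 0.1. Far more genes fell than rose: 1456 (11.1%) were lower and 502 (3.83%) were higher in KO, and the median log2 fold change over all genes tested was 0.00. The count of each list below is to be read beside these shares of 11.1% and 3.83%. When 2.5 CPM was needed in at least 4 libraries, 976 of 12181 genes tested were lower and 420 higher. The falls were also deeper. In 507 genes the level fell at least 4-fold and in 204 at least 8-fold, against 57 and 9 genes that rose as much. The KO and wt libraries did not overlap in all 1456 genes called lower and in 501 of those called higher, but they also did not overlap in 74.1% of all genes tested. Without wt replicate 2 the genes called lower were 959 of 12762 tested, and without KO replicate 2 they were 1705. Single genes cannot be tested by permutation here, since 2 libraries against 2 cannot give an exact p below 0.333. The plot of change against level shows deep falls among genes of low and of high expression. A value in parentheses after the levels of a gene is its log2 fold change of KO against wt.

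**Figure D1:**
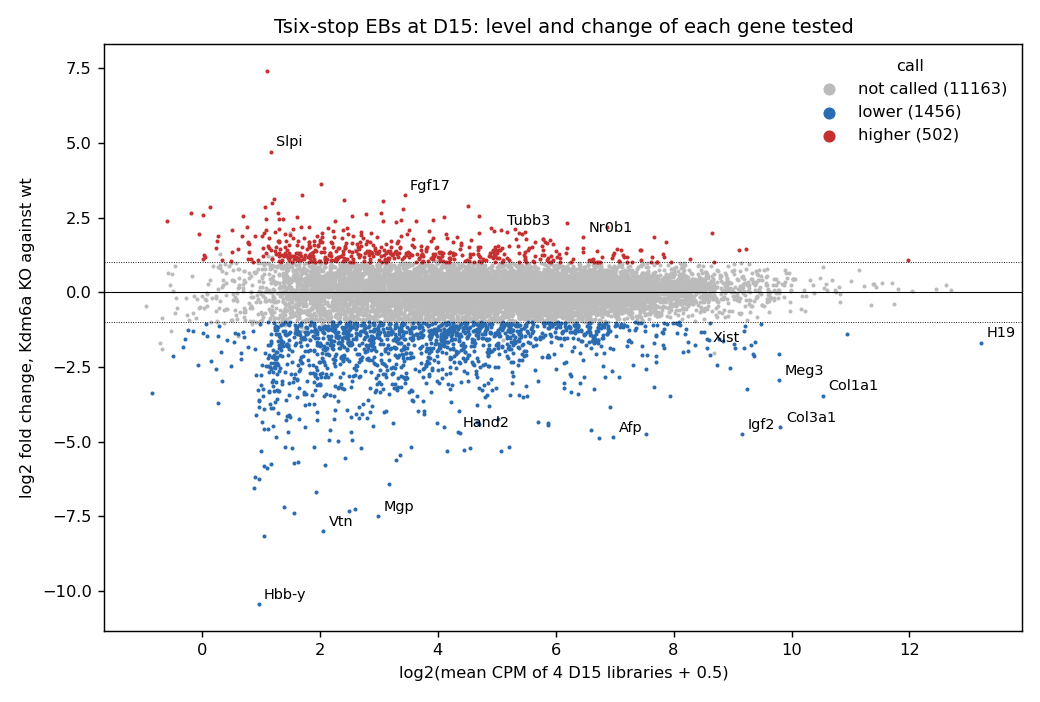
Each point is 1 of the 13121 genes tested: the horizontal axis is log2 of the mean CPM (counts scaled to a common library size) of the 4 D15 libraries plus 0.5, the vertical axis the log2 fold change of KO against wt, and dotted lines mark 2-fold. Called genes are blue (1456 lower) and red (502 higher); the falls reach deeper than the rises, and *Col3a1*, *Igf2* and *H19* fell among the abundant genes. The red point at 7.42 is *Amd1*, chosen after its values were seen, which had 6.54 CPM in KO replicate 2 and under 0.02 CPM in each of the other D15 libraries.

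The 12 largest falls among genes with at least 5 TPM in a group joined plasma proteins, stromal matrix and blood. *Hbb-y*, the embryonic beta-like globin, had 157 and 181 counts in wt and 0 in both KO libraries and in the CRISPR control, and was at least 107.7-fold lower against a floor of 3 counts over both KO libraries. *Vtn*, the plasma and matrix protein vitronectin, had 377 and 471 counts in wt and 3 and 0 in KO, a ratio of 270.1 (95% counting interval 92.1 to 1312). The ratio was 180.6 (61.5 to 878) for *Hbb-bh1* and 157 (53.4 to 764) for *Hba-x*, both embryonic globins, whose reads near-identical family members can share. It was 80.8 (31.2 to 298) for *Lyz2*, a lysozyme of macrophages, and 60.5 (27.6 to 166) for *Serpinf2*, the plasmin inhibitor of plasma. Such intervals cover counting error only. *Mgp*, a matrix protein that keeps cartilage and vessels from calcifying, on chromosome 6 from 136872435 to 136875823, had 12.7 and 17.01 CPM in wt against 0.0864 and 0.0735 CPM in KO and a log2 fold change of −7.50 (SE 0.41, edgeR FDR 1.8e-04). Others were *Srpx2* (−7.31), an extracellular sushi-domain protein, *Fmod* (−6.69), a proteoglycan that binds collagen fibrils, *Fgb* (−6.43), the beta chain of fibrinogen, and *Aqp1* (−5.77), a water channel, which lies in the chromosome 6 region described above. For every one of the 12 genes the CRISPR control lay at or near the level of KO, between 0 and 0.211 CPM. Over all 1456 genes called lower the control was below both wt libraries in 85.7% and nearer to KO than to wt in 55.5%. The counts given for the control in each list below are to be read beside these shares. In bulk libraries, fewer cells of a type and less RNA per cell cannot be told apart, which holds for each lineage below.

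**Figure D2:**
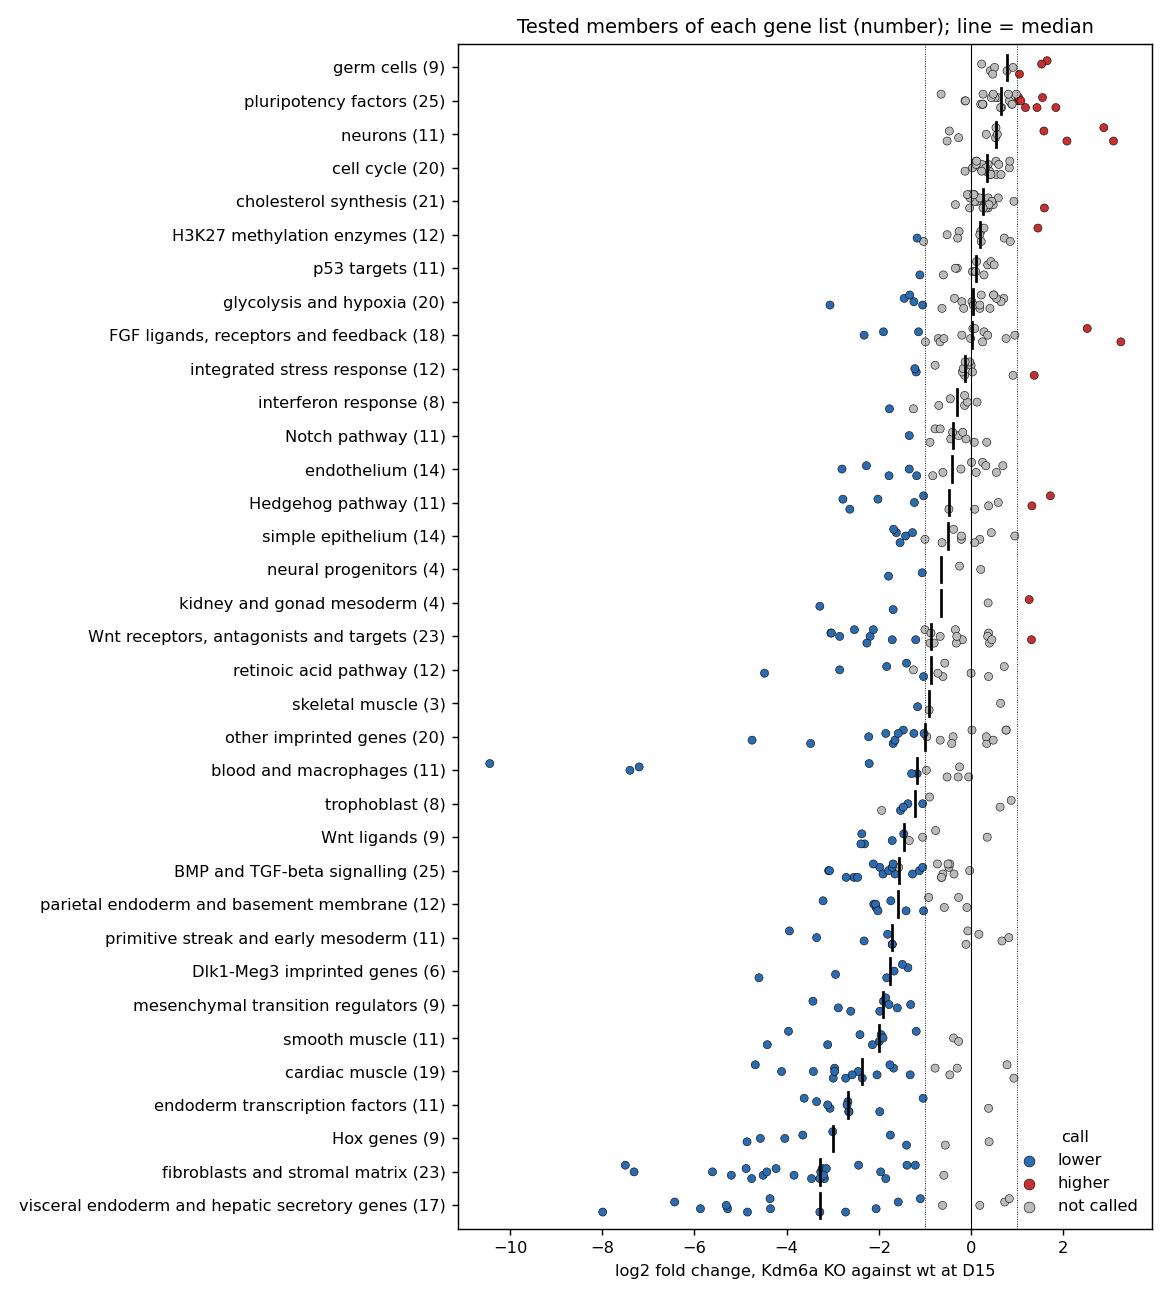
Log2 fold change of KO against wt at D15 (horizontal axis) for each tested member of 35 gene lists, with the number tested in brackets and a line at each list's median; blue members were called lower, red higher, grey not called. Lists of visceral endoderm, fibroblasts, Hox genes and endoderm transcription factors lie farthest to the left, and pluripotency, germ cell and neuronal lists to the right.

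Endoderm genes fell, from transcription factors to secreted products. Of 11 tested endoderm transcription factors 10 were lower and 0 were higher, with a median log2 fold change of −2.67. Without either wt library 7 were tested, since the rest needed the wt libraries to reach 2.5 CPM. Members that pass this way can hardly come out higher, so counts and medians describe the members tested. The same limit holds below. Without either wt library 12 of 17 visceral endoderm, 19 of 23 stromal and 13 of 19 cardiac genes were tested. So were 9 of 11 smooth muscle, 8 of 11 blood and 7 of 9 mesenchymal transition genes. *Foxa1*, a pioneer factor of gut and liver, had 21.2 and 20.6 CPM in wt against 1.47 and 1.93 CPM in KO, a log2 fold change of −3.62 (SE 0.26, edgeR FDR 1.3e-04); it lies on chromosome 12, where the strain-129 share differed. *Hnf4a*, a master regulator of visceral endoderm and hepatocytes, had 20.5 and 19.2 in wt against 1.68 and 2.22 in KO (−3.35). *Gata6*, needed for primitive endoderm, had 34.4 and 31.4 in wt against 4.58 and 3.05 in KO (−3.11), *Sox17* 16.2 and 16.7 in wt against 1.12 and 2.83 in KO (−3.06) and *Foxa2*, which marks anterior streak and definitive endoderm, 10.8 and 10.98 in wt against 0.950 and 2.52 in KO (−2.65), all in CPM. The CRISPR control was below both wt libraries and nearer to the mean of KO than to that of wt (on the log2 scale) for all 10 members called lower. Summed over the list and scaled by exon length, the level was 189 and 179.6 TPM in wt, 29.5 and 36.4 TPM in KO and 40.7 TPM in the CRISPR control.

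Secretory genes of visceral endoderm and liver fell together with these factors. Of 17 tested, 13 were lower and 0 higher, with a median of −3.28, which stayed at −3.28 with the genes near 0 in KO set to their ratio. *Apoa1*, the main protein of high-density lipoprotein, on chromosome 9 from 46228580 to 46230466, had 55.9 and 72.9 CPM in wt against 1.74 and 1.49 CPM in KO, a change of −5.31 (SE 0.30, edgeR FDR 4.7e-05). *Ttr*, the carrier of thyroid hormone and of retinol with its binding protein, had 36.98 and 46.1 in wt against 1.12 and 1.01 in KO in CPM (−5.28, SE 0.25, edgeR FDR 1.2e-04). *Afp*, alpha-fetoprotein, on chromosome 5 from 90490737 to 90508907, had 220.3 and 265 in wt against 15.5 and 1.29 in KO (−4.85, SE 0.85, edgeR FDR 0.0038), with the KO libraries far apart but below both wt libraries. The CRISPR control had 0.862 CPM for *Apoa1*, 0.774 for *Ttr* and 2.18 for *Afp*, each below both wt libraries, as it was for 12 of the 13 genes called lower; in 11 of them it was nearer to KO. Of the members not called, *Apoa2* had 2.96 and 3.77 CPM in wt against 5.29 and 5.85 CPM in KO and *Ahsg* 1.43 and 1.32 CPM in wt against 2.21 and 2.70 CPM in KO, both chosen after their values were seen. Over the list the summed level was 1062 and 1164 TPM in wt, 126 and 111 TPM in KO and 133 TPM in the CRISPR control. With 1 library left out, 7 members were called without either wt library, 12 without KO replicate 1 and 13 without KO replicate 2; without a wt library fewer genes reached 2.5 CPM in 2 libraries and were tested. The corresponding counts for endoderm transcription factors were 6, 9 and 10.

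The 250 bases before the start of *Afp* and of the 3 genes of this list that fell most are given because these genes fell together; *Ttr* and genes with several starts were left aside. The sequences are from RefSeq on GRCm38.p6, 5′ to 3′ on the strand of the gene. Capitals mark matches on either strand to TATAAA (the core promoter box), AGATAA (bound by GATA factors), TGTTTAC (bound by FOXA factors), CAAAGTC (part of the HNF4 motif) and GTTAAT (a motif of liver promoters).
Afp, chr5:90490464-90490713, plus strand: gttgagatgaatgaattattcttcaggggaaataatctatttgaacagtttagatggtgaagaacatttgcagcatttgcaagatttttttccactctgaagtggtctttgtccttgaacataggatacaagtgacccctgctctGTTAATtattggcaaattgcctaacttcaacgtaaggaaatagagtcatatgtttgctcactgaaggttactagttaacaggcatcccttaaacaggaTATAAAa
Vtn, chr11:78498870-78499119, plus strand: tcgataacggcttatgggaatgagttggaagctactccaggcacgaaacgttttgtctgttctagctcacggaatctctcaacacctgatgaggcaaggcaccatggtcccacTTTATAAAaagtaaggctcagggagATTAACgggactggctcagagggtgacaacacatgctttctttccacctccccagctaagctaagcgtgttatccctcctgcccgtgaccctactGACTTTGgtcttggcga
Fgb, chr3:83049864-83050113, minus strand: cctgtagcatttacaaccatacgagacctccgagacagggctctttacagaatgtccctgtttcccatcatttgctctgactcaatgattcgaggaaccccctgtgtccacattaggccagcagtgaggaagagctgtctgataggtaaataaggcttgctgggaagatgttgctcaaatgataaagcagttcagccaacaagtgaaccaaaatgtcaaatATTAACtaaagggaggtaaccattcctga
Serpinf2, chr11:75439502-75439751, minus strand: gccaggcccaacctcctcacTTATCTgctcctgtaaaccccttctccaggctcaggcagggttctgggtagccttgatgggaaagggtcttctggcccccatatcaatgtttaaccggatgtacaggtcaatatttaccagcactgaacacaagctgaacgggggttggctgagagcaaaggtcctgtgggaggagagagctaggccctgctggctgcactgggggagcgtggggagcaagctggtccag
With the base before the start counted as −1, GTTAAT or its reverse complement began at −105 in *Afp*, −112 in *Vtn* and −29 in *Fgb*, and TATAAA at −7 in *Afp*; the pair of TATAAA matches in *Vtn*, at −137 and −135, overlap on opposite strands. *Vtn* also held CAAAGTC at −17 and *Serpinf2* AGATAA at −230. Of the list's 21 genes 19 had a promoter in the table, with 22 starts in all. GTTAAT was found in 6 of these 22 (27.3%), against 6.43% of all 32851 promoters of this length, and CAAAGTC in 3 (13.6%), against 3.84%. TATAAA was in 22.7% against 12.4%, TGTTTAC in 9.09% against 3.17% and AGATAA in 4.55% against 9.99%. These shares are over the whole list, not over the genes that fell. CAAAGTC was in *Ahsg*, *Alb* and *Vtn*, and TGTTTAC in *Apoa2* and *Rbp4*. GTTAAT was in *Afp*, *Alb*, *Dab2*, *Fga*, *Fgb* and *Vtn*. Of these *Ahsg* and *Apoa2* were not called, and *Alb* and *Fga* were not tested. A match is only a run of letters, and no binding was measured here.

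Basement membrane genes, which parietal endoderm makes in quantity, fell by less. Of 12 members, all tested, 8 were lower and 0 higher, with a median of −1.58. *Col4a1* and *Col4a2*, the chains of the main type IV collagen, had 1102 and 1004 CPM in wt against 233 and 271 CPM in KO, and 657 and 623 CPM in wt against 121 and 175 CPM in KO. Their changes were −2.06 (SE 0.20, edgeR FDR 3.9e-04) and −2.11 (SE 0.20, edgeR FDR 3.2e-04). *Sparc*, a collagen-binding glycoprotein, had 1482 and 1362 in wt against 251 and 426 in KO in CPM (−2.07), and *Plat*, the tissue plasminogen activator that parietal endoderm secretes, 58.2 and 54.1 in wt against 3.73 and 8.38 in KO (−3.21). *Lama1*, the alpha chain of the embryonic laminin, fell by less, with 165 and 134 CPM in wt against 64.6 and 47.8 CPM in KO (−1.41). In each of these 5 genes the CRISPR control was below both wt libraries.

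Fibroblast and stromal matrix genes fell almost as a whole list: 22 of 23 tested members were lower, 0 were higher, and the median log2 fold change was −3.28. The fibrillar collagens, among the most abundant transcripts of wt EBs, had 2824 and 2593 CPM in wt against 230.2 and 261 CPM in KO for *Col1a1* (−3.46, SE 0.26, edgeR FDR 1.6e-04) and 1746 and 1696 CPM in wt against 103 and 47.3 CPM in KO for *Col3a1* (−4.51, SE 0.36, edgeR FDR 1.8e-04). *Pdgfra*, the PDGF receptor of mesenchymal progenitors, had 50.2 and 45.6 in wt against 5.30 and 4.67 in KO in CPM (−3.26, SE 0.17, edgeR FDR 3.4e-05). The small proteoglycans that space collagen fibrils fell further, *Dcn* at 18.4 and 18.04 in wt against 0.484 and 0.257 in KO (−5.61) and *Lum* at 46.7 and 42.1 in wt against 2.25 and 0.147 in KO (−5.20). For all 22 genes the CRISPR control was below both wt libraries and nearer to KO, with 134 CPM for *Col1a1*, 17.5 for *Col3a1* and 10.1 for *Pdgfra*. The summed level was 5281 and 4733 TPM in wt, 739 and 837 TPM in KO and 703 TPM in the CRISPR control. ES cells were kept on feeder fibroblasts before differentiation, and the labels do not give their strain. Whether RNA of feeder cells contributed to these levels was not tested. Reads with SNPs in 20 autosomal members of the list came from the strain-129 allele at 47.8% and 48.3% in wt, at 49.9% and 51.2% in KO and at 47.6% in the CRISPR control, and *cast* reads made up the rest; over all autosomal genes the share was 49.9% in wt replicate 1 and 51.2% in the CRISPR control, and both KO libraries had 52.0% and 52.6%. Of these genes 17 were called without either wt library, 21 without KO replicate 1 and 22 without KO replicate 2.

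Genes of the epithelial-to-mesenchymal transition fell, 9 of 9 tested, with a median of −1.90. The list holds the mesenchymal cadherin *Cdh11* beside regulators, so it does not measure regulators alone. *Snai2*, a repressor of cadherin genes in migrating mesoderm and neural crest, had 14.1 and 11.6 CPM in wt against 1.38 and 2.11 CPM in KO (−2.88, SE 0.28, edgeR FDR 3.9e-04), and *Cdh11*, a cadherin of mesenchyme, 78.4 and 72.9 CPM in wt against 4.32 and 9.78 CPM in KO (−3.43, SE 0.44, edgeR FDR 0.001). *Snai1* had 20.6 and 22.5 in wt against 3.87 and 7.08 in KO in CPM (−1.98), *Zeb1* 32.5 and 27.9 in wt against 12.5 and 11.8 in KO (−1.31) and *Twist2* 4.96 and 6.71 in wt against 0.121 and 1.80 in KO (−2.61). The CRISPR control was below both wt libraries in 8 of the 9 and nearer to KO in 5: it had 1.55 CPM for *Snai2*, near KO, and 15.9 CPM for *Snai1* and 5.14 CPM for *Twist2*, nearer to wt. KO replicate 1 was below KO replicate 2 in 7 of the 9 genes and at least 2-fold below it in 4.

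Muscle genes fell in both the smooth and the cardiac lists. In smooth muscle 9 of 11 tested members were lower and 0 higher, with a median of −1.99. For all 9 the CRISPR control was below both wt libraries, and it was nearer to KO in 8, with 139 CPM for *Acta2*. *Acta2*, the smooth muscle actin that myofibroblasts also make, had 1071 and 1082 CPM in wt against 183 and 304 CPM in KO (−2.14, SE 0.65, edgeR FDR 0.035), and *Tagln*, transgelin, 463 and 453 CPM in wt against 68.2 and 162 CPM in KO (−1.99, SE 0.45, edgeR FDR 0.011). *Actg2*, the enteric smooth muscle actin, fell most, with 52.96 and 44.1 CPM in wt against 2.70 and 1.84 CPM in KO (−4.42, SE 0.39, edgeR FDR 2.5e-04), and lies in the chromosome 6 region of changed strain-129 share. *Myocd*, the coactivator that switches on these genes, had 7.76 and 7.69 in wt against 0.639 and 2.28 in KO in CPM (−2.41), *Mylk* 14.1 and 16.8 in wt against 1.23 and 0.754 in KO (−3.96) and *Des*, desmin, 49.2 and 48.3 in wt against 4.44 and 6.87 in KO (−3.11). *Myh11*, a marker of mature smooth muscle, was not tested, at 2.08 and 2.00 CPM in wt against 0.242 and 0.717 CPM in KO. The call of *Acta2* was lost without either wt library (FDR 0.12 and 0.13), without KO replicate 1 (0.13) and with DESeq2 (0.26).

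Cardiac genes were lower in 14 of 19 tested members and higher in 0, with a median of −2.36. *Hand2*, a transcription factor of heart and limb mesenchyme, on chromosome 8 from 57320983 to 57324633, had 36.2 and 39.7 CPM in wt against 1.99 and 0.974 CPM in KO (−4.68, SE 0.38, edgeR FDR 2.0e-04) and lies in the 1 window of chromosome 8 whose strain-129 share differed. Sarcomere genes followed: *Myh7*, the slow myosin heavy chain, had 13.4 and 17.7 CPM in wt against 1.28 and 1.62 CPM in KO (−3.42, SE 0.28, edgeR FDR 2.0e-04), *Tnnc1*, troponin C, 12.3 and 14.5 in wt against 1.02 and 2.37 in KO (−2.99) and *Myl3* 3.79 and 4.93 in wt against 0.155 and 0.349 in KO (−4.11). *Tnnt2*, cardiac troponin T, had 10.6 and 12.97 in wt against 3.87 and 0.717 in KO (−2.36, SE 0.63, edgeR FDR 0.022), and *Myh6*, the fast cardiac myosin, 4.23 and 6.29 in wt against 2.42 and 1.80 in KO (−1.32). The call of *Tnnt2* was lost without wt replicate 2 (FDR 0.11), and the list had 8 calls without wt replicate 1, 7 without wt replicate 2, 15 without KO replicate 1 and 16 without KO replicate 2. Every one of the 14 genes called lower was also below both wt libraries in the CRISPR control, which was nearer to KO in 13. *Hand1*, which extraembryonic mesoderm and trophoblast also express, did not pass, with 93.6 and 85.8 CPM in wt, 24.2 and 80.5 CPM in KO and 125 CPM in the CRISPR control (chosen after its values were seen). In the skeletal muscle list 3 of 10 members were tested and 1 was lower, *Tnnt3* (−1.16), whose call was lost without either wt library or KO replicate 1. *Myod1*, *Myog* and *Myf5*, the factors that specify it, were at most 0.38 CPM in every D15 library.

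Some blood and vessel genes fell. In the blood list 6 of 11 tested members were lower, 0 higher, with a median of −1.17. For all 6 the CRISPR control was below both wt libraries, and it was nearer to KO in 5. Besides the 3 embryonic globins, *Csf1r*, the receptor through which macrophages grow, had 24.3 and 22.3 CPM in wt against 2.68 and 7.39 CPM in KO (−2.21, SE 0.49, edgeR FDR 0.01), and *Runx1*, the regulator of definitive blood, 15.3 and 16.02 CPM in wt against 4.77 and 9.14 CPM in KO (−1.17, SE 0.33, edgeR FDR 0.024). *Gata1*, the erythroid and megakaryocyte factor, did not differ beyond its error, with 4.02 and 3.57 CPM in wt against 3.21 and 4.14 CPM in KO (−0.05, SE 0.27, edgeR FDR 0.9) and 8.33 CPM in the CRISPR control. *Ptprc*, the pan-leukocyte antigen CD45, was at most 0.618 CPM. The call of *Runx1* was lost without wt replicate 2 and without KO replicate 1 (highest FDR 0.12), that of *Hbb-bh1* with DESeq2 (0.18). The list had 3 calls without wt replicate 1, 1 without wt replicate 2 and 5 without either KO library. In the endothelium 5 of 14 tested members were lower, against 11.1% of all genes tested, and 0 higher, with a median of −0.42. For all 5 the CRISPR control was below both wt libraries, and it was nearer to KO in 3, beside 55.5% of all genes called lower. *Kdr*, the VEGF receptor of vessel progenitors, had 9.98 and 9.08 CPM in wt against 0.536 and 2.21 CPM in KO (−2.80, SE 0.56, edgeR FDR 0.0068), and *Flt1*, a decoy receptor of VEGF, 74.5 and 66.00 CPM in wt against 10.9 and 18.3 CPM in KO (−2.27, SE 0.41, edgeR FDR 0.0045). *Cdh5*, VE-cadherin, had 8.16 and 8.24 in wt against 0.501 and 4.28 in KO in CPM (−1.78, SE 0.73, edgeR FDR 0.088), and its call was lost without either wt library, without KO replicate 1 and with only the D15 libraries in the fit. The list had 2 calls without either wt library, 3 without KO replicate 1 and 4 without KO replicate 2. *Pecam1*, which ES cells express as well as endothelium, had 164 and 177 CPM in wt against 216 and 151 CPM in KO (0.11, SE 0.18, edgeR FDR 0.67).

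**Figure D3:**
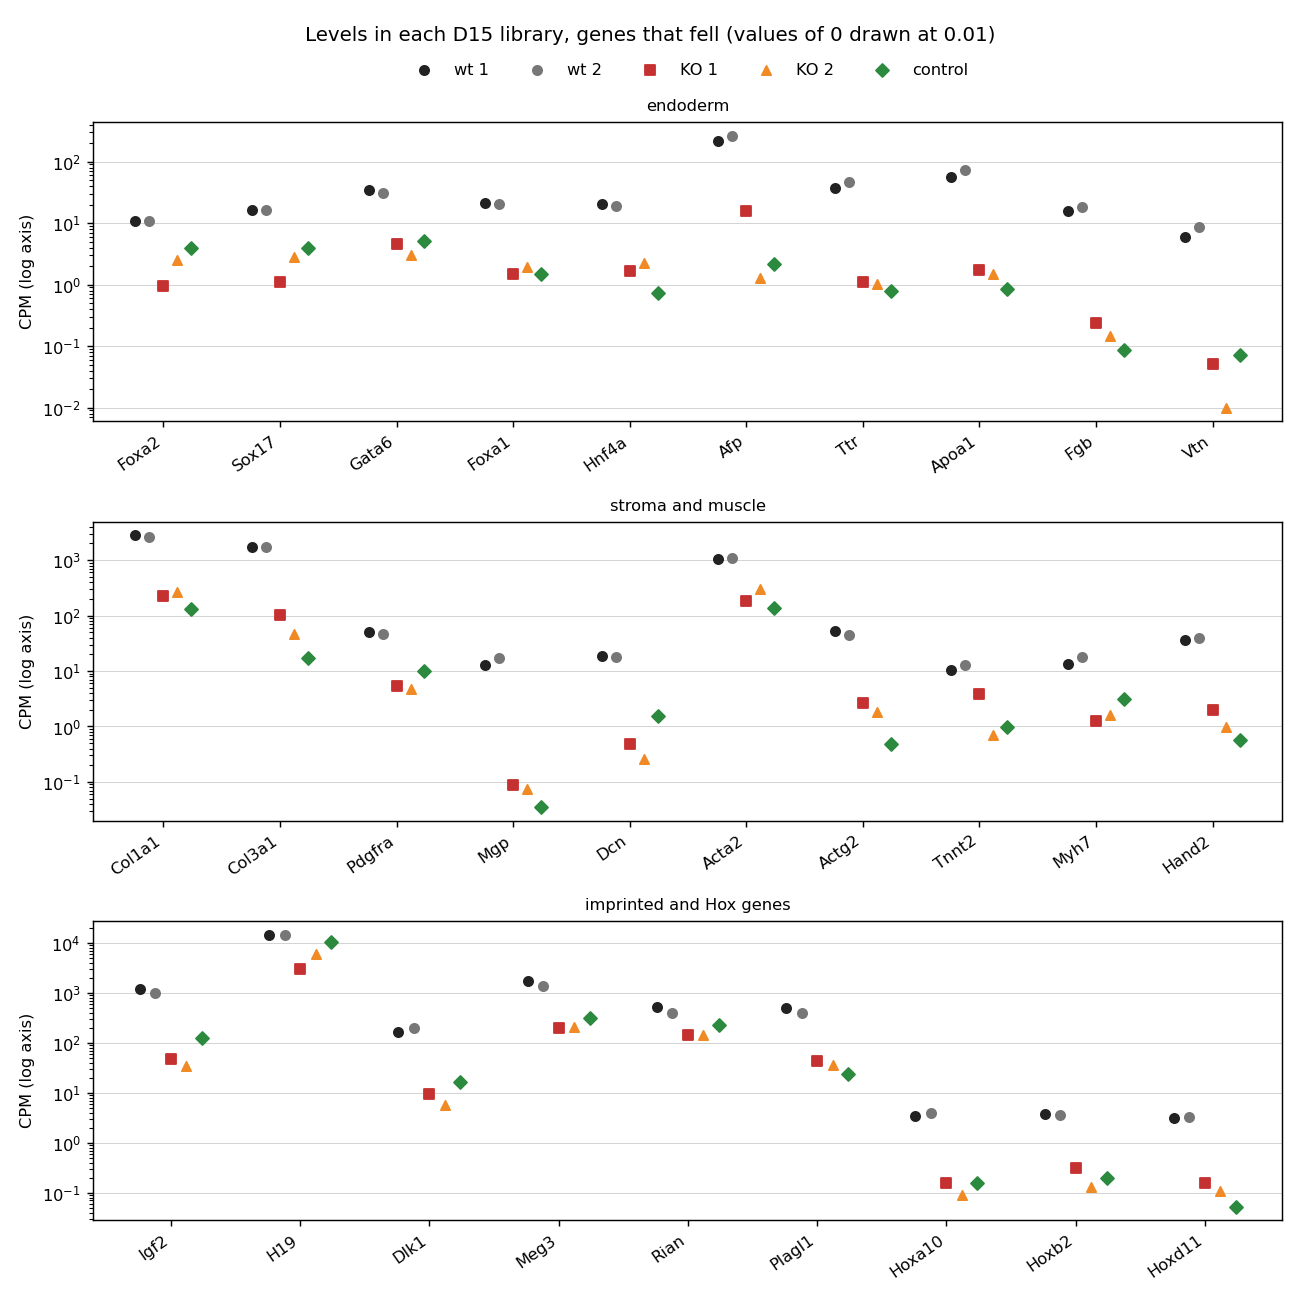
CPM on a log axis in each D15 library for endoderm genes (top), stroma and muscle genes (middle) and imprinted and Hox genes (bottom): circles are wt replicates 1 and 2, the square and the triangle KO replicates 1 and 2, the diamond the CRISPR control, and values of 0 are drawn at 0.01. The wt circles lie above both KO symbols for every gene, and the diamond lies among or near the KO symbols for most genes, with *H19* between wt and KO.

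Imprinted genes of fetal growth fell from high levels in wt. *Igf2*, the fetal growth factor, on chromosome 7 from 142650766 to 142666816, had 1185 and 1018 CPM in wt against 46.9 and 35.1 CPM in KO and 124 CPM in the CRISPR control, a change between KO and wt of −4.75 (SE 0.21, edgeR FDR 2.8e-05); its reads may include those of the overlapping antisense *Igf2os*. Its neighbour *H19*, a non-coding RNA from the other parental copy, fell by less, with 14687 and 14206 CPM in wt against 3020.0 and 5919 CPM in KO (−1.69, SE 0.28, edgeR FDR 0.0032) and 10515 CPM in the CRISPR control. *Plagl1*, a zinc finger regulator of the imprinted network, had 499 and 396 in wt against 43.8 and 36.7 in KO in CPM (−3.48, SE 0.22, edgeR FDR 8.3e-05) and 23.7 CPM in the CRISPR control. All 6 genes of the *Dlk1*-*Meg3* cluster on chromosome 12 were lower, with a median of −1.75: *Dlk1*, a membrane inhibitor of adipogenesis, had 168 and 202 CPM in wt against 9.54 and 5.68 CPM in KO (−4.60, SE 0.29, edgeR FDR 7.4e-05), and the non-coding RNA *Meg3* 1770.0 and 1361 CPM in wt against 198 and 211 CPM in KO (−2.94, SE 0.15, edgeR FDR 3.4e-05). *Rian* had 514 and 405 in wt against 143 and 146 in KO (−1.67) and *Dio3*, which inactivates thyroid hormone, 10.5 and 11.6 in wt against 3.27 and 2.96 in KO (−1.83). The cluster lies where the strain-129 share differed between KO and wt, so without such windows none of its 6 genes remained in the comparison. The CRISPR control, whose share on chromosome 12 was on the side of wt, was below both wt libraries in all 6 and nearer to KO in 5. Of the other imprinted genes 10 of 20 tested were lower and 0 higher, *Gnas* (−1.85) and *Usp29* (−2.22) among them; *Cdkn1c*, the cell cycle inhibitor, was not called (−0.96, SE 0.45, edgeR FDR 0.13). The CRISPR control was below both wt libraries in 9 of the 10 called lower and nearer to KO in 6.

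Hox genes, which pattern the trunk and are classic Polycomb targets, were low in wt EBs, and 9 of 39 reached the level tested. Of these 7 were lower and 0 higher, with a median of −3.00. Without either wt library 5 of the 9 were tested. Of the genes named here, *Hoxd11*, *Hoxb2* and *Hoxb3* reached 2.5 CPM in the wt D15 libraries alone. Members that pass this way can hardly come out higher, so the count and the median describe the members tested, not Hox genes in general. *Hoxd11* had 3.17 and 3.26 CPM in wt against 0.155 and 0.110 CPM in KO (−4.57, SE 0.38, edgeR FDR 2.1e-04), *Hoxb2* 3.77 and 3.57 CPM in wt against 0.311 and 0.129 CPM in KO (−4.04, SE 0.54, edgeR FDR 0.0013) and *Hoxb3* 2.88 and 2.52 in wt against 0.242 and 0.184 in KO in CPM (−3.65). *Hoxa10*, within the chromosome 6 region, had 3.42 and 3.90 CPM in wt against 0.155 and 0.0919 CPM in KO (−4.86). All 7 were below both wt libraries and nearer to KO in the CRISPR control, whose summed Hox level was 36.4 TPM against 77.6 and 73.9 in wt and 17.5 and 23.9 in KO. The number called was 2 without wt replicate 1, 3 without wt replicate 2 and 6 without KO replicate 1.

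Keratins of early epithelia fell in KO and were not low in the CRISPR control. *Krt18*, a keratin of simple epithelia, on chromosome 15 from 102028180 to 102032027, had 688 and 691 CPM in wt against 111 and 338 CPM in KO (−1.62, SE 0.40, edgeR FDR 0.016), and its partner *Krt8* 291 and 316 CPM in wt against 46.8 and 180.1 CPM in KO (−1.42, SE 0.51, edgeR FDR 0.058). *Krt19* had 220.2 and 249.6 in wt against 36.3 and 110.4 in KO in CPM (−1.68) and *Krt7* 97.2 and 118 in wt against 18.2 and 55.9 in KO (−1.54). In each of them KO replicate 1 was far below KO replicate 2. The CRISPR control had 814 CPM for *Krt18*, 479 for *Krt8*, 238 for *Krt19* and 149.7 for *Krt7*, and in 0 of the 5 members called lower was it below both wt libraries. The adhesion genes of the list stayed within 2-fold, *Cdh1* with 489 and 493 CPM in wt against 302 and 332 CPM in KO (−0.63, SE 0.11, edgeR FDR 0.0041) and *Epcam* with 279.9 and 289.9 CPM in wt against 334 and 314 CPM in KO (0.19, SE 0.13, edgeR FDR 0.3). Of 14 members tested, 5 were lower and 0 higher, with a median of −0.51. Without KO replicate 1 the calls of *Krt8* (−0.73) and *Krt7* (−0.92) were lost, as were those of *Krt8*, *Krt7* and *Krt19* without wt replicate 2 and that of *Krt8* without wt replicate 1; with DESeq2 *Krt19* was not called.

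Some trophoblast and primitive streak genes fell too, and the CRISPR control was on both sides of wt among them. In the trophoblast list 4 of 8 tested members were lower, against 11.1% of all genes tested, and 0 higher, with a median of −1.21. *Gata3*, a factor of trophectoderm, had 22.8 and 20.7 CPM in wt against 3.84 and 12.96 CPM in KO (−1.37, SE 0.46, edgeR FDR 0.048) and 25.4 CPM in the CRISPR control, while *Cdx2* (−1.94) and *Elf5* (0.63), which act in the same lineage, were not called. The list had 2 calls without wt replicate 1 and 1 without wt replicate 2. In the streak list 6 of 11 tested members were lower and 0 higher, with a median of −1.71. *T*, brachyury, the factor of the streak and notochord, had 7.81 and 8.33 CPM in wt against 0.898 and 4.04 CPM in KO (−1.71, SE 0.57, edgeR FDR 0.047) but 57.6 CPM in the CRISPR control. *Evx1*, a posterior streak factor in the chromosome 6 region, had 8.29 and 7.76 CPM in wt against 0.259 and 0.790 CPM in KO (−3.94, SE 0.52, edgeR FDR 0.0012) and 2.04 CPM in the CRISPR control, and *Lhx1* 13.7 and 12.3 CPM in wt against 0.415 and 2.15 CPM in KO (−3.35, SE 0.65, edgeR FDR 0.0078). *Fgf8*, which drives cells out of the streak, had 9.36 and 10.3 in wt against 0.294 and 3.64 in KO in CPM (−2.32, SE 0.87, edgeR FDR 0.068) and 32.8 in the CRISPR control. KO replicate 1 was below KO replicate 2 in all 6 genes and at least 2-fold below in 4. *Mixl1* and *Mesp1* were at most 1.88 CPM. The calls of *T*, *Gata3* and *Wnt3* were each lost without KO replicate 1 and without either wt library, and that of *Fgf8* without either wt library; 1 streak gene was called without either wt library and 4 without KO replicate 1.

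Signals that pattern mesoderm fell with these lineages. In the BMP and TGF-beta pathway 15 of 25 tested members were lower and 0 higher, with a median of −1.57. Among the ligands, *Bmp4*, which induces mesoderm and blood, had 93.5 and 90.2 CPM in wt against 18.9 and 39.5 CPM in KO (−1.65, SE 0.46, edgeR FDR 0.025), *Bmp2* 23.2 and 21.6 in wt against 1.09 and 6.65 in KO in CPM (−2.54), *Bmp5* 6.61 and 6.07 in wt against 0.294 and 1.19 in KO (−3.09) and *Tgfb3* 30.8 and 31.7 in wt against 3.94 and 3.49 in KO (−3.07), the last on chromosome 12. Among the targets, *Msx1*, a homeobox gene that BMP switches on, had 5.81 and 6.79 in wt against 0.363 and 1.56 in KO (−2.71). The CRISPR control was below both wt libraries in 11 of the 15 and nearer to KO in 4, and it had 116 CPM of *Bmp4*. KO replicate 1 was at least 2-fold below KO replicate 2 in 11 of the 15. The number of members called was 7 without either wt library, 9 without KO replicate 1 and 16 without KO replicate 2, and the call of *Bmp4* was lost without either wt library and without KO replicate 1, and that of *Bmp2* without wt replicate 1.

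Wnt ligands were lower in 5 of 9 tested members and higher in 0, with a median of −1.46. *Wnt5a*, a ligand of cell movement, had 13.2 and 13.1 CPM in wt against 1.49 and 3.60 CPM in KO (−2.37, SE 0.56, edgeR FDR 0.013), *Wnt6* 13.4 and 17.8 in wt against 1.49 and 4.47 in KO in CPM (−2.39), *Wnt11* 16.8 and 17.3 in wt against 2.94 and 3.93 in KO (−2.31) and *Wnt3*, which starts the streak, 8.76 and 9.82 in wt against 1.12 and 4.58 in KO (−1.71). The CRISPR control had 4.22 CPM of *Wnt5a*, 13.3 of *Wnt6* and 12.3 of *Wnt3*. Of receptors, antagonists and targets 9 of 23 tested were lower and 1 was higher. The CRISPR control was below both wt libraries in 7 of the 9 and nearer to KO in 4. *Fzd1*, a receptor, had 51.2 and 50.3 CPM in wt against 5.36 and 7.10 CPM in KO (−3.03, SE 0.20, edgeR FDR 1.0e-04), and *Dkk1*, a secreted antagonist, 19.6 and 17.4 CPM in wt against 0.553 and 3.95 CPM in KO (−3.04, SE 0.71, edgeR FDR 0.013). Among the targets that report Wnt activity *Axin2* was not called (−0.89, SE 0.55, edgeR FDR 0.24), *Sp5* was lower (−2.19) and *Lef1* was the member called higher (1.31, SE 0.55, edgeR FDR 0.094). The calls of *Sp5* and *Lef1* did not survive the loss of single libraries: *Lef1* lost its call without any of the 4 and with DESeq2, and *Sp5* without either wt library and without KO replicate 1.

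In FGF signalling *Fgf10*, a mesenchymal ligand, fell (−1.90, SE 0.32, edgeR FDR 0.0034), while *Fgf17* had 1.70 and 2.26 CPM in wt against 17.4 and 20.1 CPM in KO (3.25, SE 0.23, edgeR FDR 1.3e-04) with 15.9 CPM in the CRISPR control, and *Fgf15* 4.77 and 5.20 CPM in wt against 31.6 and 25.7 CPM in KO (2.52, SE 0.25, edgeR FDR 3.9e-04) with 4.01 CPM, below both wt libraries; over 18 tested members 3 were lower and 2 higher, against 11.1% and 3.83% of all genes tested. The ligand *Fgf10* had 4.40 CPM in the CRISPR control against 3.63 and 4.96 CPM in KO. Retinoic acid genes were lower in 5 of 12, with *Rarb*, a receptor gene that retinoic acid itself induces, at 13.3 and 13.4 CPM in wt against 0.570 and 0.625 CPM in KO (−4.48, SE 0.34, edgeR FDR 1.6e-04) and *Crabp2*, a carrier, at 21.9 and 23.6 in wt against 1.88 and 4.47 in KO in CPM (−2.85), whereas *Aldh1a2*, the synthesizing enzyme, was not called (0.38). The CRISPR control, with 1.62 CPM of *Rarb*, was below both wt libraries in all 5 genes called lower and nearer to KO in 2. Hedgehog genes went both ways. *Gli1*, the target that reports pathway activity, had 10.2 and 11.1 CPM in wt against 24.4 and 28.7 CPM in KO (1.32, SE 0.18, edgeR FDR 0.0015), while the co-receptors *Gas1* (−2.63) and *Boc* (−2.02) and the ligand *Ihh* (−2.78) fell. In all 5 were lower and 2 higher of 11, beside the same 11.1% and 3.83% of all genes tested. In the CRISPR control *Gli1* had 6.44 CPM, below both wt libraries. Of the 5 Hedgehog genes called lower, the control was below both wt libraries in 4 and nearer to KO in 3, with 0.440 CPM of *Ihh*. The number of Hedgehog genes called was 4 without wt replicate 1 and 6 without wt replicate 2, that of FGF genes 3 and that of retinoic acid genes 2 without wt replicate 2, and without KO replicate 2 the retinoic acid genes called were 8. In the Notch pathway 1 of 11 was lower, near the 11.1% of all genes, the ligand *Jag1* (−1.34, SE 0.23, edgeR FDR 0.0032), and *Notch1* (0.07), *Hes1* (−0.44) and *Hey1* (−0.27) were not called. *Jag1* had 11.8 CPM in the CRISPR control against 12.1 and 19.2 CPM in KO.

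**Figure D4:**
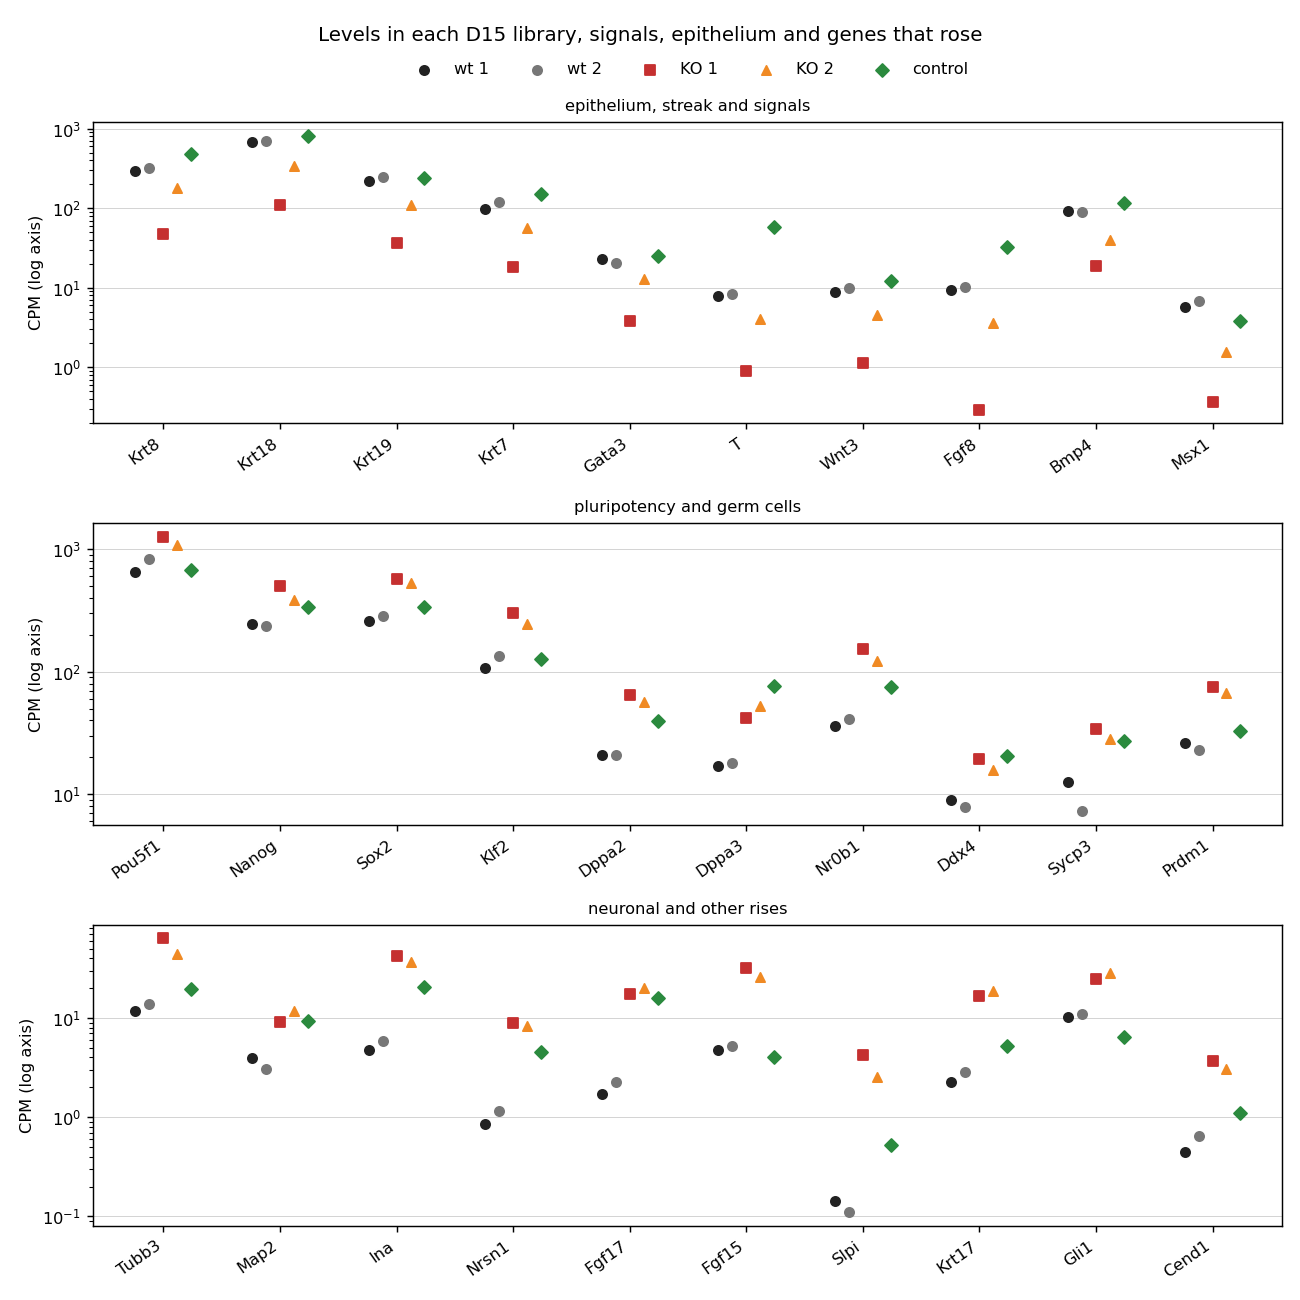
CPM on a log axis in each D15 library for keratins, trophoblast, streak and signal genes (top), pluripotency and germ cell genes (middle) and neuronal and other genes that rose (bottom), with the same symbols for wt, KO and the CRISPR control as for the genes that fell. In the top panel the square of KO replicate 1 lies lowest and the diamond of the CRISPR control is near or above the wt circles for most genes; in the middle and bottom panels both KO symbols lie above both wt circles.

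Some pluripotency genes rose. Of 25 members, all tested, 7 were higher, 0 were lower and 18 were not called, with a median of 0.66. *Nr0b1*, an X-linked nuclear receptor of the ES cell network, on chromosome X from 86191764 to 86195947, had 35.7 and 41.2 CPM in wt against 152 and 123 CPM in KO (1.84, SE 0.17, edgeR FDR 2.8e-04), and *Dppa2*, a chromatin factor of early embryos, 20.8 and 20.7 CPM in wt against 64.7 and 56.8 CPM in KO (1.55, SE 0.13, edgeR FDR 2.3e-04). *Dppa3* had 17.00 and 17.9 in wt against 41.9 and 52.3 in KO in CPM (1.43), *Klf2* 108 and 135 in wt against 302 and 247 in KO (1.18) and *Sox2* 261 and 283 in wt against 575 and 532 in KO (1.02, SE 0.11, edgeR FDR 4.9e-04). *Pou5f1* and *Nanog*, the central factors, were higher in both KO libraries but stayed under 2-fold and were not called, *Pou5f1* with 0.66 and *Nanog* with 245 and 237 CPM in wt against 499 and 387 CPM in KO (0.88, SE 0.16, edgeR FDR 0.0041). At D0 *Pou5f1* had 1575 and 1518 CPM in wt against 1388 and 1516 CPM in KO. At D15 the level in the CRISPR control was 679 CPM of *Pou5f1*, 337 of *Nanog*, 337 of *Sox2* and 74.8 of *Nr0b1*. It was above both wt libraries in 6 of the 7 genes called higher and nearer to KO in 3. Over all 502 genes called higher those shares were 82.1% and 42.0%, so these counts are not particular to the list. The summed level of the list was 11168 and 12113 TPM in wt, 18468 and 14943 TPM in KO and 11004 TPM in the CRISPR control. The count of 7 became 4 without wt replicate 1, 8 without wt replicate 2, 6 without KO replicate 1 and 11 without KO replicate 2. *Sox2*, close to 2-fold, was under it without wt replicate 1 (0.95) and without KO replicate 1 (0.99).

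Of 9 tested germ cell genes 3 were higher, 0 were lower and 6 were not called, with a median of 0.78. Over all genes tested 3.83% were higher. *Sycp3*, of the meiotic chromosome axis, had 12.6 and 7.30 CPM in wt against 33.9 and 28.4 CPM in KO (1.65, SE 0.28, edgeR FDR 0.0035), *Prdm1*, which sets primordial germ cells apart, 26.4 and 22.8 CPM in wt against 75.3 and 66.6 CPM in KO (1.53, SE 0.22, edgeR FDR 0.0018), and *Ddx4*, the germ cell helicase, 8.998 and 7.93 CPM in wt against 19.3 and 15.8 CPM in KO (1.05, SE 0.26, edgeR FDR 0.017). *Dazl* (0.42) and *Mael* (0.51) were not called. The CRISPR control was above both wt libraries in all 3, with 27.1, 32.9 and 20.5 CPM. *Ddx4* lost its call without wt replicate 2 and without KO replicate 1.

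Some genes of the neuronal cytoskeleton and vesicles rose. In the neuronal list 4 of 11 tested members were higher and 0 lower, with a median of 0.54. For all 4 the CRISPR control was above both wt libraries, and it was nearer to KO in 3. *Nrsn1*, a vesicle protein of neurites, had 0.855 and 1.16 CPM in wt against 8.90 and 8.27 CPM in KO (3.09, SE 0.33, edgeR FDR 4.9e-04), *Ina*, the intermediate filament internexin, 4.80 and 5.90 CPM in wt against 41.8 and 37.00 CPM in KO (2.88, SE 0.37, edgeR FDR 0.0011), and *Tubb3*, neuronal tubulin, 11.7 and 13.8 CPM in wt against 63.7 and 44.4 CPM in KO (2.08, SE 0.23, edgeR FDR 5.4e-04). *Map2* had 3.94 and 3.05 in wt against 9.19 and 11.8 in KO in CPM (1.58), with its call lost without wt replicate 2. *Ina* overlaps *Nt5c2* on the opposite strand, so its counts may hold reads of both. *Stmn2* (0.53) and *Elavl3* (0.57) were not called. Neural progenitor factors were hardly detected: *Sox1* and *Pax6* were at most 0.898 CPM, 4 of 16 members were tested and 2 of them fell, *Nes*, an intermediate filament of many progenitors, with 52.2 and 51.5 CPM in wt against 7.48 and 22.5 CPM in KO (−1.79, SE 0.43, edgeR FDR 0.013), and *Sox3* (−1.06). The call of *Sox3* was lost without wt replicate 2, without KO replicate 1 and without a filter on low counts.

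The 12 largest rises among genes with at least 5 TPM in a group belonged to few lists. *Slpi*, a secreted protease inhibitor of epithelia, had 0.143 and 0.110 CPM in wt against 4.23 and 2.52 CPM in KO (4.71, SE 0.48, edgeR FDR 6.6e-04) and 0.528 CPM in the CRISPR control. *Krt17*, a keratin of basal epithelium, had 2.25 and 2.87 CPM in wt against 16.8 and 18.6 CPM in KO (2.79, SE 0.31, edgeR FDR 5.8e-04), and *Uts2r*, the urotensin receptor, 0.396 and 0.644 in wt against 5.46 and 4.45 in KO in CPM (3.26). *Tnfsf11*, the RANK ligand, had 0.507 and 0.239 in wt against 2.63 and 3.95 in KO (3.12), *Spag6*, of the sperm flagellum, 1.93 and 2.28 in wt against 13.04 and 13.5 in KO (2.66) and *Cend1*, a regulator of neuronal cell cycle exit, 0.444 and 0.644 in wt against 3.70 and 3.07 in KO (2.64). The others were *Fgf17*, *Nrsn1* and *Ina*, given above, *Frmd7* on the X chromosome (2.62), *Fgf1* (2.56) and *Cntf* (2.57), which overlaps the more abundant *Zfp91* on the same strand and is therefore uncertain, as is *Spag6*, which has a similar paralog. Of the 100 largest rises 8 belonged to a list, against 36 of the 100 largest falls. In the kidney and gonad list *Sall1*, a zinc finger factor also active in ES cells, rose (1.26, SE 0.17, edgeR FDR 0.0012), while *Osr1* (−3.28, on chromosome 12) and *Wt1* (−1.69) fell; the call of *Wt1* was lost without either wt library, when 1 gene of the list was called.

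None of 20 cell cycle genes was called by edgeR or by DESeq2, with a median of 0.34 and changes from −0.13 to 0.84. An unadjusted p under 0.05 was reached by 12 of them, and without the 2-fold minimum 12 passed the FDR, *Ccnb1* (0.83, SE 0.12, edgeR FDR 0.0015) and *Mki67* (0.55, SE 0.15, edgeR FDR 0.025) among them. Ribosomal protein genes had 0 calls among 69 tested by either tool, 7 of them with an unadjusted p under 0.05, and a median of 0.17. In cholesterol synthesis 1 of 21 was called, *Idi1* (1.59), and not on the counts of the *cast* genome, while *Hmgcs1* (0.37) and *Mvd* (0.13) were not. Among 20 glycolysis and hypoxia genes 5 were lower: *Car9*, a carbonic anhydrase of hypoxic cells, had 15.03 and 12.6 CPM in wt against 1.85 and 1.45 CPM in KO (−3.06, SE 0.31, edgeR FDR 4.0e-04), with *Ndrg1* (−1.45), *P4ha1* (−1.33), a collagen hydroxylase, *Adm* (−1.24) and *Vegfa* (−1.05), whereas *Ldha* (0.02) and *Slc2a1* (−0.63) were not called. The CRISPR control, with 2.27 CPM of *Car9*, was below both wt libraries in all 5 genes called lower and nearer to KO in 3. *Adm* lost its call without either wt library and without KO replicate 1, and *Vegfa* without wt replicate 2, without KO replicate 2 and without a filter on low counts; 3 genes of the list were called without wt replicate 1 and 2 without wt replicate 2. Of p53 targets 1 of 11 was lower, *Cdkn1a* (−1.11, SE 0.29, edgeR FDR 0.02), and not without KO replicate 1; *Mdm2* (0.03) and *Ccng1* (−0.30) were not called. The stress genes *Ddit3* (−1.19) and *Atf3* (−1.22) fell and *Chac1* (1.37) rose, of 12 tested, with *Atf4* at −0.14; *Ddit3* lost its call without wt replicate 2 and *Atf3* without either wt library or KO replicate 1. Interferon genes had 1 call in 8, *Usp18* (−1.77), lost without either wt library, and *Isg15* was not called (−1.25). Over all genes tested 11.1% were lower and 3.83% higher. Beside these shares the few calls among cholesterol, p53, stress and interferon genes are not a result about those pathways.

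Among the enzymes that write and erase H3K27 methylation, *Kdm6b*, the other demethylase, was lower, with 182 and 194 CPM in wt against 94.8 and 72.6 CPM in KO (−1.17, SE 0.14, edgeR FDR 8.1e-04) and 109 CPM in the CRISPR control; without KO replicate 2 the change was just under 2-fold (−0.96). *Phf19*, a Polycomb accessory protein, was higher, with 65.5 and 75.5 CPM in wt against 238 and 146 CPM in KO (1.45, SE 0.53, edgeR FDR 0.065), a call lost without either wt library and without KO replicate 1. *Ezh1*, a methyltransferase, had −0.52 and was not called. In all 1 of 12 tested members was lower and 1 higher, against 11.1% and 3.83% of all genes tested. These single calls are therefore not a result about the enzymes as a list.

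By chromosome, the share of tested genes called lower ranged from 8.64% on chromosome 17 to 17.7% on chromosome 18 and 16.2% on chromosome 6, and the share called higher from 1.5% on chromosome 12 to 10.2% on the X chromosome, whose median log2 fold change was 0.23. In the 22 windows, which held 844 tested genes, 13.9% were lower, against 10.9% of 11728 other autosomal genes; in the 6 windows of chromosome 6 where KO carried the strain-129 allele alone 19.3% of 249 were lower, with a median of −0.28. Outside these windows 1829 genes were called, 1339 lower and 490 higher.

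**Figure D5:**
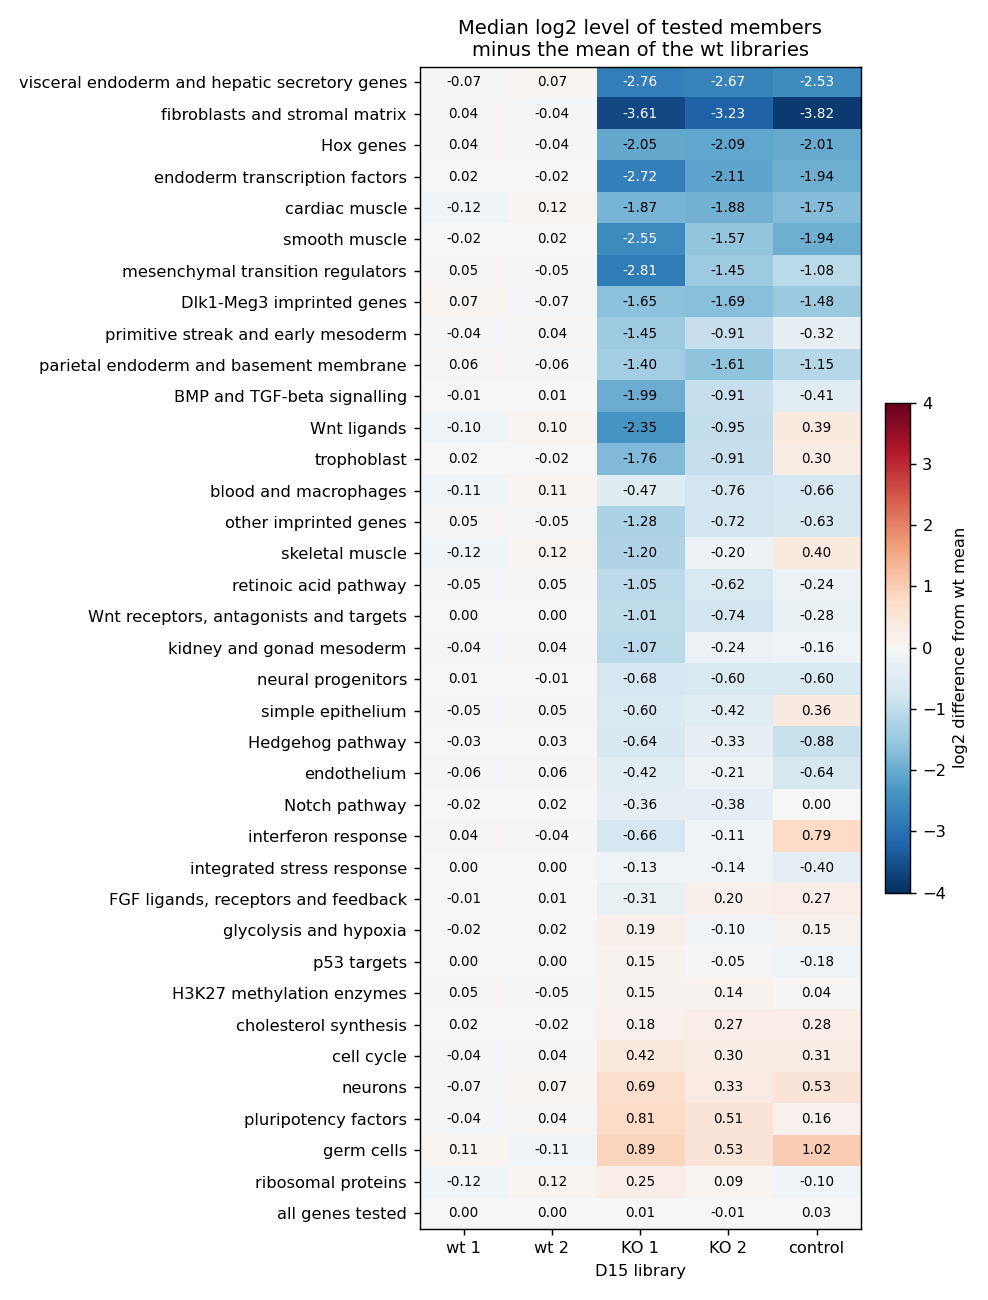
For each gene list (rows) and each D15 library (columns: wt and KO replicates and the CRISPR control), the number is the median over tested members of log2(CPM + 0.5) minus the mean of the 2 wt libraries; blue is lower and red higher. In the top rows the CRISPR control is as blue as KO, while for Wnt ligands, trophoblast and simple epithelium it is above wt (0.39, 0.30 and 0.36) and KO is below.

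The CRISPR control lay on different sides of wt for different genes. Of the 1456 genes called lower, it was below both wt libraries in 85.7% and nearer to the mean of KO than to that of wt in 55.5%; of all genes tested it was below both wt libraries in 39.8%, above both in 43.9% and nearer to KO in 50.1%. The share rose with the size of the fall: it was nearer to KO in 45.5% of 949 genes that fell up to 4-fold, in 65.0% of 303 that fell 4- to 8-fold and in 87.7% of 204 that fell further, and among the 100 largest falls in 93. Of the 502 genes called higher it was above both wt libraries in 82.1% and nearer to KO in 42.0%. The median difference from the wt mean in genes called lower was −0.89 for the CRISPR control and −1.57 for KO, on the log2(CPM + 0.5) scale, and in genes called higher it was 0.55 and 1.22. The control is 1 library and shares the wt libraries with the comparison of KO, so these values describe it and no test was made. In many genes the CRISPR control was at the level of KO or nearer to it than to wt. For these the deletion of *Kdm6a* and whatever the edited clones and the control share cannot be told apart. They include most of the endoderm, basement membrane, stroma, smooth muscle, cardiac, blood, *Dlk1*-*Meg3* and Hox genes called lower. Of genes called lower they also include 6 of 10 other imprinted and 5 of 9 mesenchymal transition genes. In the endothelium, Hedgehog and hypoxia lists they include 3 of 5 each. Smaller shares belong here in the BMP (4 of 15), Wnt ligand (2 of 5), Wnt receptor, antagonist and target (4 of 9) and retinoic acid (2 of 5) lists. Most of the neuronal and germ cell genes called higher belong here too. For *Krt8*, *Krt18*, *Krt7*, *T*, *Fgf8*, *Bmp4*, *Gata3* and *Wnt3* the control was above both wt libraries.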

How the data were processed

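RNA was sequenced as poly(A)-selected TruSeq libraries, 75 bp single-end. The authors mapped reads with TopHat for the expression of both alleles together, and with Bowtie2 to 129 and *cast* versions of mm10 for single alleles (their processing notes name TopHat2 2.1.1 and Bowtie2 2.4.5). The gene annotation and strandedness are not given in the sources used here. By their headers and values, the deposited tables hold estimated counts per gene on each of the genomes, of which 7.1% are not whole, and reads with SNPs of each allele. The column headed 129 was rounded to whole numbers and tested; SNP reads gave only 129 shares, as medians over genes in windows of 10 Mb.

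Counts of the 8 wt and KO libraries of D0 and D15 were fitted together with edgeR 4.0.16 (R 4.3.3), TMM factors (0.929 to 1.065) and the quasi-likelihood test, with 1 term per genotype and day and the contrast of KO against wt at D15. Genes needed 2.5 CPM in 2 libraries, so a gene could pass through the 2 wt D15 libraries alone. CPM values use TMM over 9 libraries, and TPM uses exon lengths of GENCODE vM21. On simulated counts the procedure was tested before use. Of 24346 gene symbols 23310 matched this annotation directly and 666 by a synonym. DESeq2 1.42.0 served an alternative, and Python 3.11.15 with matplotlib 3.10.9 the summaries.

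The comparison, the gene lists and the tests were chosen with earlier results of these data known. Genes named are the first 3 members of each list, up to 4 called members per list with the largest change, and the 12 largest falls and rises among called genes with at least 5 TPM in a group and no overlap between the libraries, with *Kdm6a*, *Xist* and *Tsix*; others are said to be chosen after their values were seen. A few genes that this rule names are not reported here.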

Additional observations from a re-analysis of the deposited data

How the results depend on the processing

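Across 16 alternatives 1389 to 5856 genes were called, against 1958. Without a filter on low counts 3099 genes were called, 926 of them higher, and without a minimum fold change 5856, with 3152 lower and 2704 higher, since both settings admit more genes. With 1 library left out 1389 to 2282 genes were called, 959 to 1705 lower and 428 to 577 higher, and leaving out a wt library left fewer genes that reached 2.5 CPM; the cause of the drop in calls was not tested. DESeq2 called 1945 and the counts on the *cast* genome 1953. With a filter of 2.5 CPM in at least 4 libraries 1396 of 12181 tested genes were called. That filter gave a value to 117 of the 186 named genes tested, and 147 had one without either wt library. A gene without a value in an alternative could not lose its call there. Of 148 named genes called, 115 kept their call in every alternative that tested them; the others were mostly lost when a wt library or KO replicate 1 was left out, and the cause was not tested.

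With the replicate number as a block 2005 genes were called, 1502 lower and 503 higher, *Kdm6a* among them (−1.20, edgeR FDR 0.089). The numbers were not taken to pair wt with KO: deviations of same-numbered wt and KO libraries correlated over genes at −0.135 at D15 and 0.002 at D0. Between D0 and D15 they correlated at 0.22 in KO and −0.194 in wt. Among the D15 libraries alone the block gave 1932 calls and the crossed numbers, added after seeing the data, 1929.

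Some genes that were not called changed sign. *Fgf5* had a log2 fold change of 0.01 with DESeq2 and with RLE normalization, 0.06 without a filter, 0.00 with D15 libraries only and 0.02 on the *cast* counts, and *Gata1* 0.02 without a filter. With 1 library left out the values ran from −0.27 to 0.26 for *Fgf5*, −0.21 to 0.15 for *Gata1*, −0.11 to 1.16 for *Elf5*, −0.07 to 0.12 for *Ldha*, −0.04 to 0.15 for *Mdm2*, −0.03 to 0.22 for *Notch1*, −0.15 to 0.37 for *Pecam1*, −0.08 to 0.28 for *Ptch1* and −0.05 to 0.65 for *Tsix*.

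Each group holds 2 libraries. The KO libraries may each be 1 clone, the CRISPR control is 1 library with a doubted label, and genes under 2.5 CPM, many Hox, muscle and neural factors among them, were not tested.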
